A study of Drosophila melanogaster with 2 samples.

Results

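Polycomb and trithorax group genes keep developmental genes silent or active through many cell divisions, and 10 of them, ph-p, ph-d, Pc, Psc, Su(z)2, E(z), pho, Scm, trx and Trl, were examined for peaks of the transcription factor Fer2 among 13945 protein-coding genes of Drosophila melanogaster. These genes were chosen because peaks at ph-p and Trl are among the 10 with the highest signal value, so the ranks of those peaks are a description and no test was made. A peak was assigned to every gene that contained its summit or lay at most 5 kb from it. The next of these genes by rank is Pc, at 28, with a peak that lies beyond its 3′ end. Of the 10 genes, 8 had at least 1 peak in the thresholded list, against 39.8% of all protein-coding genes. The other genes, pho and Scm, had none. The highest peaks lay in ph-p, at rank 7 of 2862, and in Trl, at rank 9. In 4 of the 10 genes (ph-p, Psc, E(z) and Trl) a thresholded summit lay within 500 bp of the gene's own transcription start site (TSS). Of all protein-coding genes, 15.9% had a summit that close.

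In flies, Polycomb repressive complex 2 (PRC2) methylates a histone H3 tail, and Polycomb repressive complex 1 (PRC1) reads that mark and keeps chromatin compact. DNA-binding proteins such as Pho bring these complexes to Polycomb response elements. Trithorax group proteins counter them and maintain transcription, by histone methylation and by remodelling of nucleosomes. Fer2 is a basic helix-loop-helix factor known for its part in the development of dopaminergic and clock neurons, and proteins of that class bind the E-box, CANNTG.

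Both samples were chromatin from whole embryos, 6 to 24 h old, of a transgenic line that stably expresses Fer2 with a C-terminal tag of green fluorescent protein (GFP). Chromatin was sheared to 200 to 800 bp and precipitated with anti-GFP by the sample description, while the antibody label names Fer2. The samples are biological replicates 3 and 2 of 1 group, with no second genotype or treatment. Neither the promoter that drives the fusion protein nor the number of embryos is stated in the labels, and whole embryos mix all cell types. The data are 4 lists of peaks on dm6, as deposited by the authors. They are a list of 2862 peaks thresholded by the irreproducible discovery rate (IDR), a pooled list of 30000 and a list of 30000 for each replicate. The IDR is a measure of how alike peaks rank in replicates. Each thresholded peak near the 10 genes had the same signal value and rank in the pooled list, so these lists are not separate rankings there. Each peak carries a signal value, the authors' score on a scale that is not stated, which ranks peaks within a list (rank 1 is highest). Signal values ran between 75.7 and 2295 in the thresholded list, with a median of 122.7. No read counts are in the lists, so depth is unknown, and no control sample was analysed here.

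The sequences at the highest peaks of ph-p, ph-d, Trl, Pc, E(z) and trx are shown because the text refers to their letters, on the plus strand of dm6. For ph-p the stretch is the middle of the rank 7 peak, chrX:2137262-2137472, which has no match at the neighbouring copy ph-d, and capitals mark 10 bp on each side of the summit. For ph-d it is chrX:2123620-2123788, which lies under no peak and matches both ends of that ph-p peak, and capitals mark the 18 bases between the matching blocks. The other windows span 101 bp around a summit, and capitals mark any of the 7 words named further on. They lie at chrX:2137872-2137972 (ph-p, rank 30), chrX:2124041-2124141 (upstream of ph-d, rank 226), chr3L:14759463-14759563 (Trl, rank 9), chr3L:21304515-21304615 (beyond Pc, rank 28), chr3L:10637983-10638083 (E(z), rank 98) and chr3R:14283840-14283940 (trx, rank 168).
ph-p rank 7, middle: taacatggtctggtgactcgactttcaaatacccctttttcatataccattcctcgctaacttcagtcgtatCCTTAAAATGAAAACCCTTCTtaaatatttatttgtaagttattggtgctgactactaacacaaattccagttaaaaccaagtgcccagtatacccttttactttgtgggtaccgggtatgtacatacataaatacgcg
ph-d, matching stretch: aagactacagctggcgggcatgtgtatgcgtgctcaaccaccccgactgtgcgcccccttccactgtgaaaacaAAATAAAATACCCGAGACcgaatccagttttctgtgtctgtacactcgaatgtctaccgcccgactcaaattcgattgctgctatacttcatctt
ph-p rank 30: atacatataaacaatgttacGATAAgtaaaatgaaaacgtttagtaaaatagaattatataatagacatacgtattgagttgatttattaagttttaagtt
ph-d rank 226: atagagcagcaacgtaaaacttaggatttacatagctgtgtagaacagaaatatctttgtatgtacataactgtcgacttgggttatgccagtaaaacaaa
Trl rank 9: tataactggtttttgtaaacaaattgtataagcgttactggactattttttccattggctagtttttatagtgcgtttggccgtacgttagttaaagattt
Pc rank 28: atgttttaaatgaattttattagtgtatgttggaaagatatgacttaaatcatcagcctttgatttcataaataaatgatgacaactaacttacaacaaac
E(z) rank 98: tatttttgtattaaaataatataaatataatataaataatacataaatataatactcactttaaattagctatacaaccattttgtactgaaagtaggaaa
trx rank 168: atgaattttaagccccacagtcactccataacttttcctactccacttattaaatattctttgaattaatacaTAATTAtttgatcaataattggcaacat

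ph-p (FBgn0004861, chrX:2126210-2138371, minus strand) encodes a Polyhomeotic protein, a PRC1 subunit that spreads silencing through its SAM domain. Its highest peak, chrX:2137185-2137552, had a signal value of 1267 and rank 7 in the thresholded list. The replicate lists held it at 846.8 (rank 5) in replicate 3 and at 449.4 (rank 13) in replicate 2. The summit lay inside the gene, 1027 bp from its 5′ end and 489 bp upstream of its second TSS. A second peak, at chrX:2137701-2138092, had a signal value of 823.3 and rank 30, with its summit 449 bp downstream of the first TSS. Replicate 3 held that peak at 399.6 (rank 40) and replicate 2 at 435.7 (rank 14). A further peak, of 226.5 and rank 493, lay in an intron, 1271 bp downstream of the nearest own TSS. Both highest peaks of ph-p thus lay among its 3 start sites.

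ph-d (FBgn0004860, chrX:2115727-2123286, minus strand) is the distal copy of the same gene and encodes a closely related PRC1 subunit. Its highest peak, chrX:2123934-2124330, had a signal value of 328.8 and rank 226, at 178.1 (rank 252) in replicate 3 and 163.8 (rank 189) in replicate 2. The summit was intergenic, 805 bp upstream of the ph-d TSS, and also 2119 bp past the 3′ end of ph-p. A second summit in an almost identical interval had 81.3 and rank 2609, 1012 bp upstream. The same replicate peaks overlapped both intervals, but that of replicate 3 covered only the rank 226 summit and that of replicate 2 only the rank 2609 summit. Neither ph-d summit lay within 500 bp of a ph-d TSS. In the pooled list the highest summit there had 57.7 (rank 4080), 154 bp downstream of the start.

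**Figure D1:**
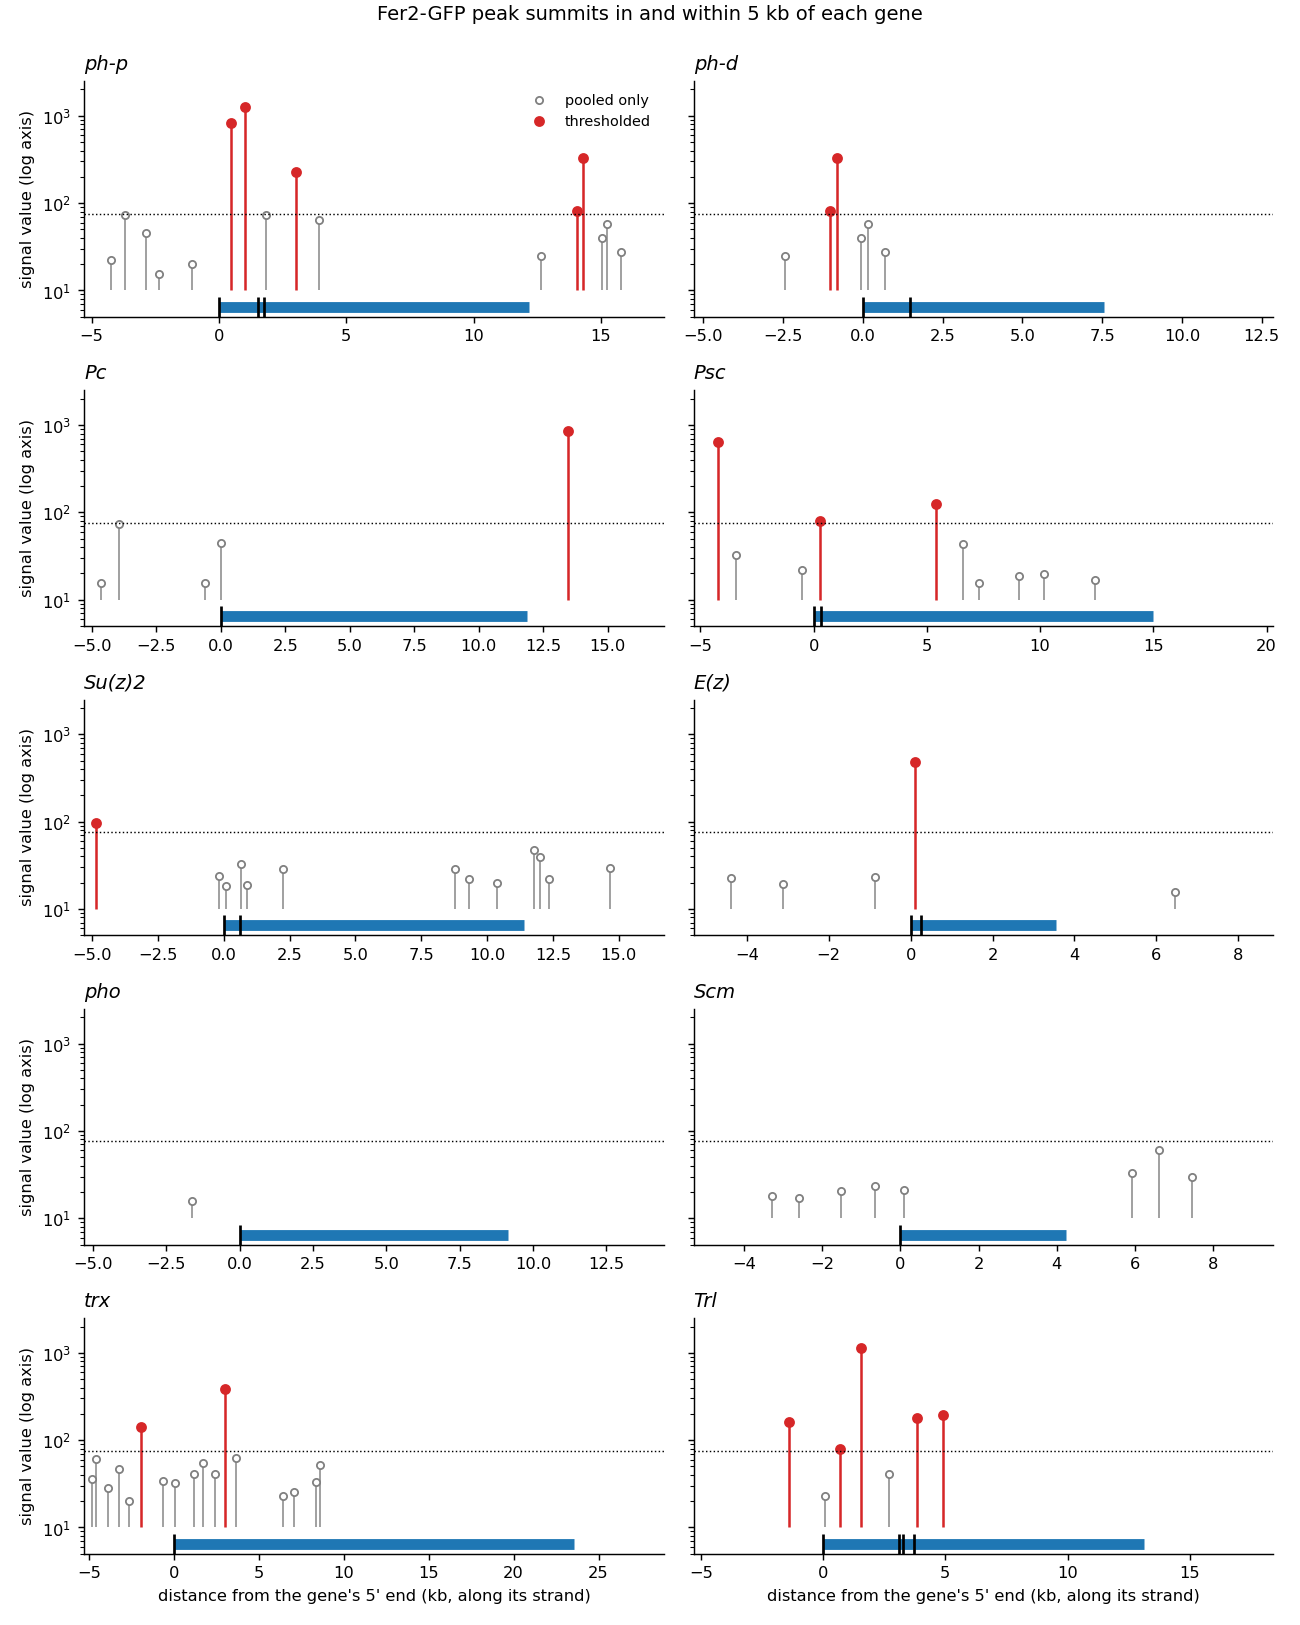
Signal value (log axis) of each peak summit against distance from the gene's 5′ end, in kb along the gene's strand, for the 10 genes; red points are thresholded peaks, open grey points are in the pooled list only, the bar is the gene, ticks are its start sites and the dotted line is the lowest thresholded signal value, 75.7. ph-p and Trl each hold 5 thresholded summits within 5 kb, and pho and Scm hold none.

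Since ph-p and ph-d are neighbouring copies, the peaks at ph-p were compared with ph-d by blastn, a step added after the data were seen. The ends of the rank 7 peak matched ph-d: one block of 75 aligned bases was 92.0% identical and another of 83 was 83.1% identical. The summit lay in the 211 bp between them, and at ph-d only 18 bp separate the matching blocks. No peak of the pooled or replicate lists overlapped either matching block at ph-d. The nearest pooled summits were 288 and 303 bp away from these blocks. In the rank 30 peak, blocks of 139 and 38 aligned bases matched ph-d at 84.9% and 86.8% identity, with 216 bp between them at ph-p and 311 bp at ph-d. The ph-p summit lay between the blocks, and so did the rank 226 summit of ph-d. The rank 2609 summit of ph-d lay inside a matching block. Of all 31-base words in the rank 7 peak, 94.4% occur once on the 6 chromosome arms. In the other 17 peaks near the 10 genes all do, as they do in 98.7% of all 2862 thresholded peaks.

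**Figure D2:**
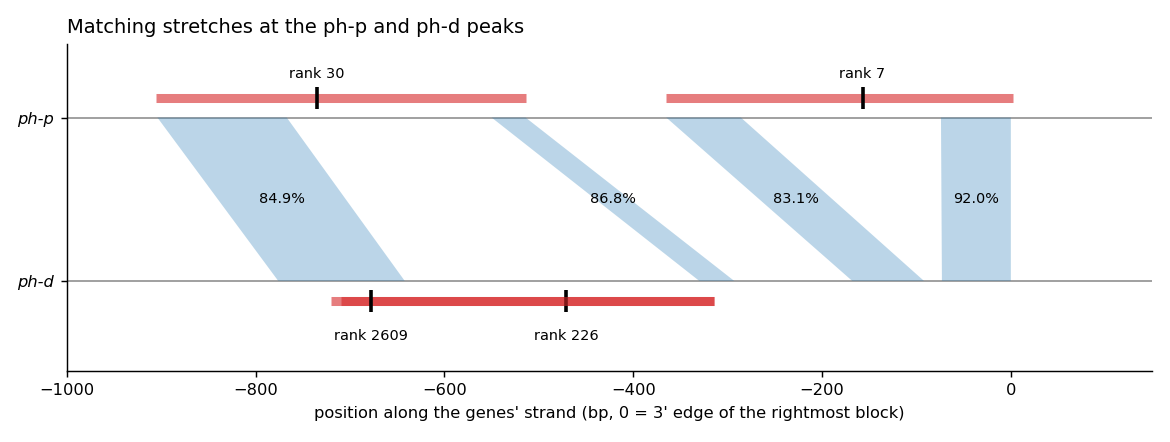
Thresholded peaks (red bars) and their summits (black ticks) at ph-p and ph-d, with position in bp along the genes' strand and blue bands joining matched stretches, labelled with percent identity. The summits of rank 7 and rank 30 lie outside the bands at ph-p.

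Pc (FBgn0003042, chr3L:21306138-21318020, minus strand) encodes the PRC1 chromodomain protein that reads the methyl mark placed by PRC2. Its single thresholded peak, chr3L:21304403-21304746, had a signal value of 853 and rank 28, at 427.8 (rank 35) in replicate 3 and 431.2 (rank 16) in replicate 2. That summit lay 1573 bp past the 3′ end of Pc, 13455 bp from the Pc TSS and 93 bp from a start site of the neighbour CG11309. At the Pc TSS itself the pooled list held a peak of 44.4 and rank 5872, with the summit 6 bp downstream. Replicate 3 held a peak of 27.5 (rank 5385) there and replicate 2 one of 14.2 (rank 13910). The peak that gives Pc its high rank thus lies at the start of CG11309, and the peak at the Pc start ranks far lower. The highest pooled peak near Pc outside the thresholded list had 73.3 (rank 2960), just under the lowest thresholded signal value. Its summit lay 3932 bp upstream of the Pc TSS and 429 bp from a start of Rab26. Replicate 3 held a peak of 21.3 (rank 8432) there and replicate 2 one of 56.6 (rank 1448). The lowest thresholded peak near any of the 10 genes was that of 80.1 (rank 2664) in Trl.

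Psc (FBgn0005624, chr2R:12965997-12980994, minus strand) encodes the RING finger partner in PRC1, and Su(z)2 (FBgn0265623, chr2R:12996501-13007911, plus strand) is its paralogue. The highest peak of Psc had a signal value of 641.6 and rank 48, at 346.5 (rank 63) in replicate 3 and 277.2 (rank 50) in replicate 2. It lay 4210 bp upstream of the Psc TSS and 163 bp from a start of the noncoding gene lncRNA:CR44339. Psc had 2 further peaks, an intronic one of 125.9 (rank 1361), 5076 bp downstream of a TSS, and one of 80.3 (rank 2656), 60 bp upstream of a TSS. Su(z)2 had 1 thresholded peak, of 96.1 and rank 2064, at 49.9 (rank 2307) in replicate 3 and 52.5 (rank 1630) in replicate 2. That summit was intergenic, 4848 bp upstream, near the edge of the 5 kb reach and 2244 bp from CG33798. Another summit, at rank 2473, was 5537 bp away and so just outside. At the Su(z)2 TSS the pooled list held 32.7 (rank 9203), 22 bp downstream. The 15.5 kb between the divergently transcribed Psc and Su(z)2 held 3 thresholded summits.

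E(z) (FBgn0000629, chr3L:10634575-10638130, minus strand) encodes the histone methyltransferase of PRC2. It had 1 thresholded peak, chr3L:10637832-10638194, with a signal value of 487.6 and rank 98. Replicate 3 held it at 288.2 (rank 89) and replicate 2 at 197 (rank 120). The summit was 97 bp downstream of a TSS, at the same base in both replicates. The next thresholded summit was 18816 bp from the gene.

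pho (FBgn0002521, chr4:1172469-1181628, minus strand), which encodes the zinc finger protein that binds Polycomb response elements, had no thresholded summit within 5 kb, and the nearest was 37220 bp away. The pooled list held 1 peak near pho, of 15.8 and rank 28810, 1609 bp upstream. Replicate 3 held 1 peak of 15.2 (rank 16025), and the higher of 2 in replicate 2 had 11.2 (rank 19904). Scm (FBgn0003334, chr3R:9633359-9637611, minus strand), which encodes a SAM domain protein that links Polycomb complexes, also had no thresholded summit, with the nearest 6168 bp away at rank 1372. The pooled list held 8 peaks near Scm, the highest with 60.7 and rank 3827, below the lowest thresholded signal value. That summit lay 2364 bp past the 3′ end of Scm and 144 bp from a start of Calr. At the Scm TSS the pooled list held 20.8 (rank 19008), 83 bp downstream.

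trx (FBgn0003862, chr3R:14263358-14286903, minus strand) encodes the histone methyltransferase that gives the trithorax group its name. Its highest peak, chr3R:14283723-14284021, had a signal value of 385.7 and rank 168, at 247.1 (rank 129) in replicate 3 and 162.9 (rank 193) in replicate 2. The summit was intronic, 3013 bp downstream of the TSS. A second peak, of 139.7 and rank 1160, lay 1957 bp upstream and 211 bp from a start of red. At the trx TSS the pooled list held 32.6 (rank 9235), 30 bp downstream.

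Trl (FBgn0013263, chr3L:14747929-14761049, minus strand) encodes GAGA factor, which binds GAGAG and keeps chromatin open. Its highest peak, chr3L:14759330-14759714, had a signal value of 1142 and rank 9, at 581.1 (rank 19) in replicate 3 and 558 (rank 6) in replicate 2. The summit was intronic, 1536 bp downstream of the first of 4 start sites. The other 4 peaks of Trl had signal values of 80.1 to 191.7 and ranks 676, 766, 911 and 2664. Of these, only the one at rank 766 lay within 500 bp of a Trl TSS, 136 bp downstream, and the one at rank 911 lay 408 bp from a start of Mgat4a. ph-p and Trl each had 5 thresholded summits within 5 kb, counting for ph-p the 2 summits that lie upstream of ph-d. Of all protein-coding genes, 55 (0.394%) had 5 or more, and the most was 13. When a peak went only to its nearest TSS, ph-p had 3 and Trl had 4. As the choice of genes rested on peaks at ph-p and Trl, nothing is read from that share.

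**Figure D3:**
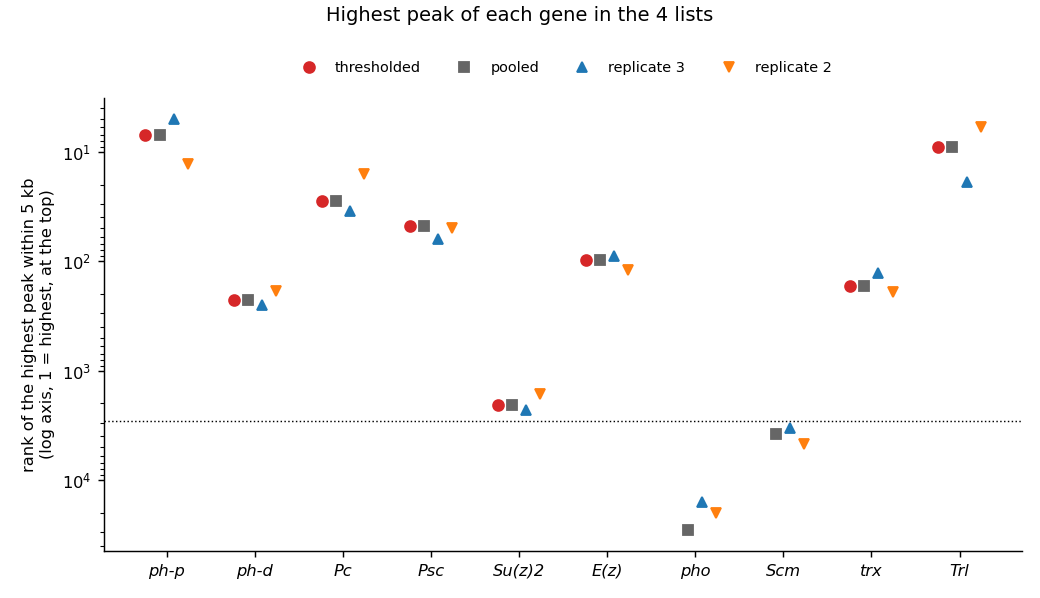
Rank of the highest peak within 5 kb of each gene (log axis, rank 1 at the top) in the thresholded, pooled, replicate 3 and replicate 2 lists; the dotted line is the length of the thresholded list, 2862. ph-p and Trl are highest, Su(z)2 lies just above the line and Scm and pho lie below it.

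The share of genes with a peak depends on the list. In the thresholded list 8 of the 10 genes had a summit within 5 kb, against 39.8% of all protein-coding genes, and against 47.1% of those with a length in the range of the 10 genes. In the pooled list all 10 had one, with 1 peak near pho and 17 near trx as the extremes, against 87.4% of genes. All 10 also had one in replicate 3, against 91.6%, and in replicate 2, against 87.4%, so presence in these lists says little about a gene. Within 500 bp of an own TSS, 4 of the 10 genes had a thresholded summit, against 15.9% of genes, and 9 of the 10 had a pooled one, against 49.6%. A peak of rank 100 or better was within 5 kb of 5 of the 10 genes (ph-p, Trl, Pc, Psc and E(z)), against 2.41% of genes. As the genes were chosen on peaks of these lists, nothing is read from these counts.

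The 20 gene and peak pairs were 18 distinct peaks, because both ph-d summits also lie near ph-p. By location 9 were at a promoter (within 500 bp of any TSS), 6 in an intron and 3 intergenic, with none in coding sequence. Over all thresholded peaks 58.4% were at a promoter, 30.3% in an intron and 9.33% intergenic. For 13 of the 18 peaks the nearest TSS of any gene belonged to 1 of the 10 genes. The other 5 were nearest to CG11309, lncRNA:CR44339, CG33798, red and Mgat4a.

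A peak of each replicate overlapped all 18 peaks, and 2845 of all 2862 thresholded peaks. The thresholded list was derived from the replicate and pooled lists by IDR, and the replicates share a control alignment, so this overlap follows largely from how the list was made. The replicates' summits lay 0 to 133 bp apart near the 10 genes, with a median of 36 bp, and 0 to 397 bp apart over 2845 thresholded peaks, with a median of 35 bp. Replicate 3 gave the better rank for 7 of the 18 peaks and replicate 2 for 11. Both ph-d peaks were matched to the same replicate peaks, ranked better in replicate 2, and each is counted here and in the medians. The ranks differed by a median of 1.5 times and at most 3.17 times, the last for Trl. With 2 replicates no test was made.

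**Figure D4:**
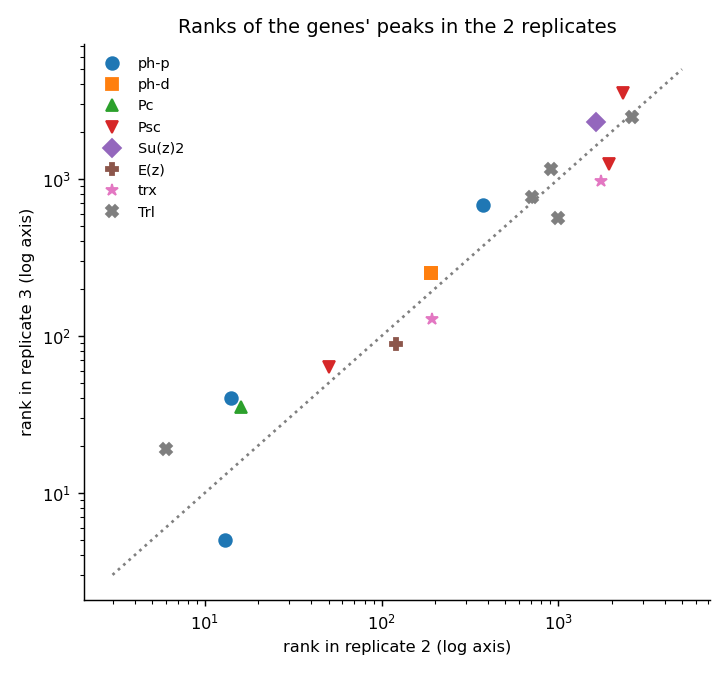
Rank in replicate 3 (vertical axis) against rank in replicate 2 (horizontal axis) for the 18 thresholded peaks near the 10 genes (both axes log), with 1 point per peak and a dotted line of equal ranks. Ranks in the replicates differed by at most 3.17 times, and the points of ph-d coincide because the same replicate peaks overlap both intervals.

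Letters within 50 bp of the 18 summits were searched on both strands for 7 words. The E-box CANNTG was in 5 windows (27.8%), against 32.4% of all thresholded windows. Among the windows at the highest peak of each of the 8 genes, only that of Su(z)2 held one. Letters of a peak beyond its window were not counted, such as the caagtg in the ph-p rank 7 stretch shown above. GAGAG, the word of GAGA factor, was in 2 (11.1%), against 8.67%. GCCAT, the core bound by Pho, was in 1 (5.56%), against 12.9%. TAATTA was in 4 (22.2%), against 11.5%, and GATAA in 3 (16.7%), against 25.7%. TGAGTG was in 1 (5.56%), against 3.25%, and TATCGATA in none, against 1.64%. These counts depend on which summits are used: at the summits of replicate 3, without replicate 2, CANNTG was in 3 windows, TAATTA in 2 and GATAA in 5. At those of replicate 2, without replicate 3, CANNTG was in 4, TAATTA in 6, GATAA in 6, GAGAG in 1 and GCCAT in 0. They depend on width as well: within 100 bp CANNTG was in 8 windows, TAATTA in 8, GATAA in 6, GAGAG in 5 and GCCAT in 3. Within 25 bp CANNTG was in 3, TAATTA in 2, GATAA in 1, GAGAG in 1 and GCCAT in 0. The shares over all thresholded windows were not counted at these widths. The words can share letters where they overlap, as GATAA does with TATCGATA, and a match is a description of letters, not a site. Of the 18 windows, 10 (55.6%) held any of the 7 words, against 66.2% of all thresholded windows, and those at ph-p rank 7, Trl rank 9, Pc rank 28 and E(z) rank 98 held none. G and C made up 15.8% (E(z)) to 48.5% of the windows with a median of 29.7%, against a median of 30.7% over all. Both highest ph-p windows held taaaatgaaaac, the longest run they share. It was found in 3 of 2862 thresholded windows, including the 2 from which it was taken, so nothing is read from that count. That run was picked out after the windows were seen.

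A wider list of 67 other Polycomb and trithorax genes, made with earlier results of these data known, gave 46 (68.7%) with a thresholded summit within 5 kb and 16 within 500 bp of an own TSS. By class these were 3 of 4 for PRC1, 4 of 7 for PRC2, 2 of 3 for the deubiquitinase PR-DUB, 9 of 10 for DNA-binding recruiters, 2 of 5 for other Polycomb genes, 8 of 10 for the Brahma remodelling complex, 6 of 12 for the COMPASS family of histone methyltransferases and 12 of 16 for other trithorax genes. The background for the same reach is 39.8%.

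**Figure D5:**
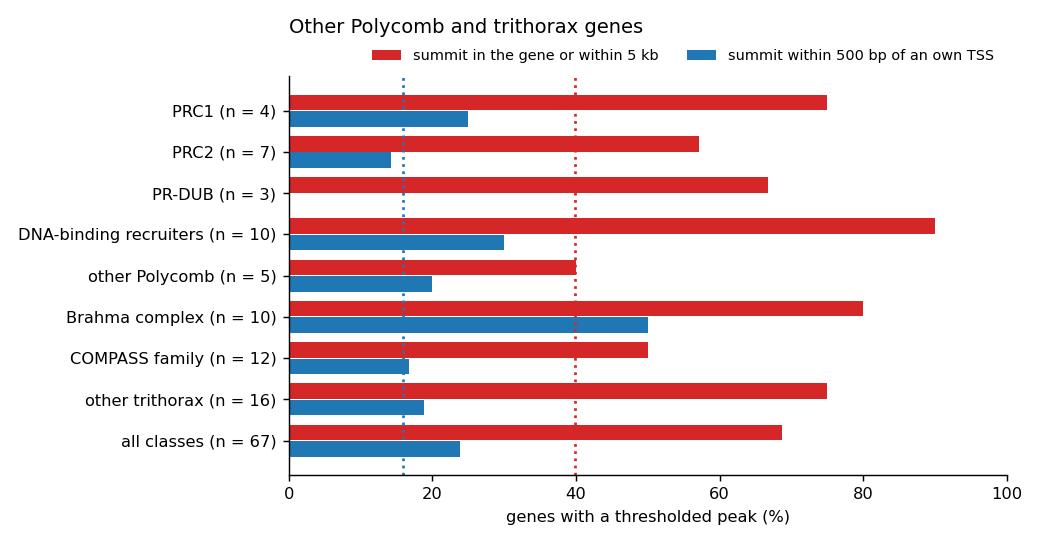
Percent of the genes of each class with a thresholded summit within 5 kb (red) and within 500 bp of an own TSS (blue); dotted lines give the share of all protein-coding genes, 39.8% and 15.9%. DNA-binding recruiters have 9 of 10 genes with a summit within 5 kb, and other Polycomb genes 2 of 5.

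For 12 of those 46 genes the gene's own TSS was the nearest to its highest peak, and so it was for 5 of the 22 genes with a peak named here. The highest peak in the whole thresholded list, of 2295, was near ash1, a trithorax group histone methyltransferase, but lay 8142 bp from the ash1 TSS and 89 bp from a start of CG14100. Of other trithorax genes, Mrg15 had rank 39, at a peak 130 bp from a start of Cp190. tara had rank 81, 5832 bp from its own start, and vtd and E(bx) had none. In PRC2 the rank 6 peak, of 1306, was near Caf1-55, a histone-binding subunit, 3958 bp from its TSS and 126 bp from Art3. Su(z)12 had rank 2700, 133 bp from its own start, jing had rank 1563, nearest to lncRNA:CR46075, and esc and escl had none.

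Among DNA-binding recruiters, phol, a relative of pho, had rank 45 (652.5), 1518 bp upstream of its start and 113 bp from CG3552. The Dsp1 peak, at rank 301, was 612 bp upstream of its start and 600 bp from CG9921. The Spps peak, at rank 505, was 62 bp from a start of mask, and z had none. In the Brahma complex brm, the ATPase subunit, had rank 53 (614.3), 145 bp upstream of its start and 121 bp from that of Arl1. The osa peak, at rank 67, was 17796 bp from an osa TSS and 187 bp from lncRNA:CR46036. The Bap55 peak, at rank 481, was 3315 bp from its own TSS and 137 bp from CG6550, and polybromo and e(y)3 had none.

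In PRC1, Kdm2 had rank 85 at an intronic summit 4300 bp from its own TSS and l(3)73Ah rank 2335, 297 bp upstream of its own. The RYBP peak, at rank 1079, was nearest to lncRNA:CR44761, and Sce, the RING ubiquitin ligase, had none. In PR-DUB, sba had rank 1270 in an intron, calypso had rank 1934 with CG42837 nearer, and Asx had none. Of other Polycomb genes crm had rank 1294, nearest to Syx4, and l(3)mbt rank 1961, nearest to CG5934, and sxc and E(Pc) had none. In the COMPASS family wds had rank 841, trr rank 959 and Rbbp5 rank 1176, with egh, CG14805 and eRF1 nearest in that order, and Set1 and Lpt had none.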

How the data were processed

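The authors deposited peak lists for replicates 3 and 2, for their pooled alignments, and an optimal list thresholded by IDR and derived from the other 3, all on dm6, per the labels and the deposited text files. Per those text files the same control alignment served both replicates and the pool. Which peak caller, settings and IDR cut-off were used is not given in the sources used here. The signal value is a score deposited by the authors, used only to rank peaks within a list. The deposited −log10 of the q-value ranked peaks only in an alternative, since all 2862 thresholded peaks share 3.83. Summits, taken as interval start plus summit offset, were assigned with Ensembl BDGP6 genes by Python 3.11.15 with pandas 2.3.3, and sequence came from the RefSeq Release 6 assembly. Assignment was tested on simulated data with planted summits. Depth is unknown, so no counting interval was given. The members and lists were chosen with earlier results of these data known. All 10 members are named, and in each class of the wider list up to 3 genes with the highest peak and up to 2 without one. In the wider list 3 symbols were matched by synonym. The blastn 2.17.0 comparison (e-value 0.001, word size 11), the 31-base words and the shared 12-base run were added after the data were seen. Alternatives changed the reach, the promoter and word windows, the list and the gene extents, and used the highest peaks or the summits of each replicate alone.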

Additional observations from a re-analysis of the deposited data

How the results depend on the processing

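With only summits inside the gene taken, 5 genes had a thresholded peak in place of 8, with 11 peaks in place of 18. It was 6 genes with 12 peaks at 1 kb, and 6 genes with 13 peaks when a peak went only to its nearest TSS. Pc and Su(z)2 had none in either case. At 10 kb it was 9 genes with 22 peaks. The median best rank, over the 8 genes with a peak, was 73 as reported. It was 98 for gene bodies (5 genes), 133 at 1 kb (6 genes) and 98 at 10 kb (9 genes). For the higher-ranked peaks at a stricter threshold it was 48 (7 genes), and for the nearest TSS 133 (6 genes). These medians cover differing genes: Scm entered at 10 kb with rank 1372, and Su(z)2, at 2064 as reported, had no peak at the stricter threshold. At 1 kb and for the nearest TSS the best rank of Psc was 1361 in place of 48. Protein-coding genes with a peak, 5555 as reported, numbered 1174, 3224, 3537 and 2097 for gene bodies, 1 kb, the stricter threshold and the nearest TSS. The wider list's 46 numbered 13, 29, 30 and 15 in that order. At 10 kb, 7413 protein-coding genes and 48 of the wider list had a peak. Windows with any word, 10 as reported, were 17 at 100 bp on each side. With 1 replicate left out, counts ran over 8 to 8 genes, 20 to 21 peaks, a median rank of 76 to 85, 5433 to 5616 protein-coding genes, 43 to 44 of the wider list, 3 to 4 genes with a summit at an own TSS and 9 to 13 windows. The cause of these changes was not tested. The deposited −log10 q-value is constant in the thresholded list and column 5 is constant in every list, so neither gave another order there. By −log10 q in the other lists, with ties averaged, the median signal value over the 10 genes' best peaks was 272.6 in place of 436.6 (pooled, 6 genes tied), 109.1 in place of 180.4 (replicate 2, 6 tied) and 267.6 as reported in replicate 3 (2 tied), and each gene's highest-signal peak had its highest −log10 q, alone or tied, in all 3. No paired analysis was possible because both samples belong to 1 group.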
